A study of Macaca mulatta with 30 samples.

Results

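The Notch pathway was followed in fetal Rhesus macaques through 10 named genes: the receptors NOTCH1, NOTCH2, NOTCH3 and NOTCH4, the ligands DLL1, DLL4 and JAG1, and the target genes HES1, HEY1 and HEYL. They were found by their gene symbol in the count tables, which hold 30246 gene identifiers for lung and 32386 for hippocampus. The symbol was matched for 8 of the 10 genes in both tissues, and all 8 passed the filter on low counts. HES1 and HEYL were not matched to a row and were not analysed here.

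Pregnant wild type macaques received a single intramuscular injection of a corticosteroid or of saline, and tissue was taken from the fetus. The clinical drug is Celestone, a mixture of betamethasone phosphate and betamethasone acetate, and Beta-Ac is betamethasone acetate alone. Lung, labelled as gestational day 124 to 130, came from 5 groups of 3 fetuses, namely Beta-Ac (0.125 mg/kg) after 6 h or 5 days, the clinical drug (0.25 mg/kg) after 4 h or 5 days, and saline (control). Hippocampus, labelled as 130 to 136 days of gestation, came from 3 groups of 5 fetuses, namely controls, the clinical drug and Beta-Ac, all at 5 days, and 9 of these animals also gave a lung library. The hippocampus labels put these 9 animals at 131 to 136 days, all outside the range of the lung label. The labels of lung and hippocampus thus disagree on the age of the same animals. Hippocampus groups follow the sample titles, because the treatment and dose fields of these samples are the other way round (0.25 mg/kg for Beta-Ac and 0.125 mg/kg for the clinical drug). For the 6 treated animals that also gave lung, the drug and dose in the lung labels are those of the hippocampus titles.

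Notch receptors sit in the membrane and are bound by ligands of the Delta and Jagged families on a neighbouring cell. Binding leads to cleavage of the receptor by an ADAM protease and then by gamma-secretase, and the freed intracellular domain enters the nucleus, where it joins RBPJ and a Mastermind protein to switch on repressors of the HES and HEY families. In lung the pathway is known for its part in sorting airway cell fates and in vessel growth, and in brain for keeping radial glia, the neural stem cells, from differentiating. DLL4 and NOTCH4 are best known from endothelium, NOTCH3 from the mural cells around vessels, and HEY1 from both vessels and neural progenitors.

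Between 14.1 and 45.0 M reads per lung library (median 21.7 M) and between 18.3 and 29.3 M per hippocampus library (median 23.7 M) were assigned to genes. Each of the 8 genes had from 192 to 20808 reads in every lung library and from 111 to 3658 in every hippocampus library. Levels are reads per 1 M reads (CPM) after TMM scaling, which are not corrected for transcript length, so only levels of the same gene are compared. The tissue labels were checked on markers. Summed hippocampal neuron markers (7 of 8 genes in the table) lay between 1.00 and 5.74 CPM in lung, with NEUROD1 and NEUROD2 at 0 in every library, against 2847 to 4720 CPM for 8 of 8 genes in hippocampus. A gene counts as called when it changed at least 1.5-fold with a p under 0.05 and, over all tested genes, an adjusted p under 0.1, by edgeR's quasi-likelihood test and Storey's q in lung or Benjamini-Hochberg adjustment in hippocampus. In hippocampus 1 control library (control 5) carried choroid plexus transcripts, at 1083 CPM over 4 of 6 markers against 7.81 to 29.1 in the other 14 libraries. Also, 1 Beta-Ac library (Beta-Ac 4) stood apart from its group. Its counts differed from those of the other Beta-Ac libraries by a chi-square per gene of 166 to 261, against 34.2 to 78.6 among those others. Control 1 differed from controls 2, 3 and 4 by 86.8 to 115, against 30.94 to 32.45 among those controls.

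In control lung all 4 receptors and all 3 ligands were present. NOTCH2 was at 379 ± 54 CPM (SD, n = 3), NOTCH3 at 322 ± 36, NOTCH4 at 186 ± 33 and NOTCH1 at 151 ± 28. DLL4 was at 93.0 ± 37.4 CPM, JAG1 at 87.2 ± 8.8 and DLL1 at 28.7 ± 2.7. The target HEY1 was at 17.5 ± 5.6. In control hippocampus (n = 5) NOTCH2 was at 98.0 ± 18.1 CPM, NOTCH1 at 82.4 ± 10.3, NOTCH3 at 72.2 ± 17.0 and NOTCH4 at 11.5 ± 4.1. There JAG1 was at 39.3 ± 8.9 CPM, DLL1 at 24.0 ± 4.2, DLL4 at 8.12 ± 2.53 and HEY1 at 47.9 ± 7.0. The vessel-linked NOTCH4 and DLL4 stood lower in hippocampus than in lung and HEY1 higher, as set side by side only: the tables were counted on partly different identifiers, and the tissues were not tested against each other. Summed endothelial markers were also lower in hippocampus, at 178 to 439 CPM in controls for 10 of 11 genes against 3747 to 4388 for 9 of 11 in lung.

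The first question was what each drug did to the pathway within hours. HEY1, a repressor that Notch switches on directly, was the only one of the 8 genes called in either early comparison, and it rose after both drugs. Control lungs had 11.4, 22.2 and 19.0 CPM of HEY1. At 4 h after the clinical drug the values were 24.1, 22.9 and 33.2 CPM, and at 6 h after Beta-Ac they were 37.1, 31.9 and 45.6 CPM. Every early treated lung lay above every control, narrowly for the clinical drug and by a wide margin for Beta-Ac, and control 1 was the lowest of the 15 lungs. HEY1 was 1.52-fold higher after the clinical drug (log2 fold change 0.61 ± 0.22, SE, q = 0.0909) and 2.18-fold higher after Beta-Ac (1.12 ± 0.22, q = 0.0523), by the quasi-likelihood test. This was 1 of 8 genes called for each drug, where 7.4% of all tested genes were called for the clinical drug (3.46% higher) and 0.442% for Beta-Ac (0.368% higher). Without control 1 the log2 fold change was 0.36 (q = 0.288) for the clinical drug and 0.88 (q = 0.199) for Beta-Ac, so both calls were lost. The call for the clinical drug was also lost without control 3 (0.67, q = 0.147) or any of its own lungs (0.66, 0.69 and 0.41, q from 0.1 to 0.27), and that for Beta-Ac without control 3 (1.19, q = 0.104) or Beta-Ac 3 (0.98, q = 0.292).

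By 5 days HEY1 was back among the controls. It was at 18.3, 16.4 and 20.6 CPM after the clinical drug and at 14.5, 17.4 and 15.9 CPM after Beta-Ac. The log2 fold change against controls was 0.07 (95% interval -0.39 to 0.54) and -0.14 (-0.61 to 0.33), and neither was called. The difference between 6 h and 5 days of Beta-Ac was itself called (2.40-fold, log2 1.26 ± 0.22, q = 0.0503), where 0.261% of all tested genes were called, 0.227% higher at 6 h, and the groups of 13% did not overlap. That call was lost without Beta-Ac 3 at 6 h (1.12, q = 0.244) or any of the 5-day lungs (1.19, 1.33 and 1.25, q from 0.155 to 0.23). Between 4 h and 5 days of the clinical drug HEY1 differed by 0.53 ± 0.22 (q = 0.0927), below the fold threshold. Between the early groups HEY1 differed by -0.52 ± 0.22 (q = 0.117) for the clinical drug against Beta-Ac, which was not called, and 0 of the 8 genes were, against 6.74% of all tested genes. In this last comparison the doses and the times differ as well as the drugs, and the parts of each cannot be told apart. The lungs at 4 h all have animal numbers beginning with 15, and all other treated lungs numbers beginning with 16 or 17. Controls have numbers beginning with 15 or 16. Lung labels give no sequencing run, so a batch in lung could not be checked in any comparison.

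**Figure D1:**
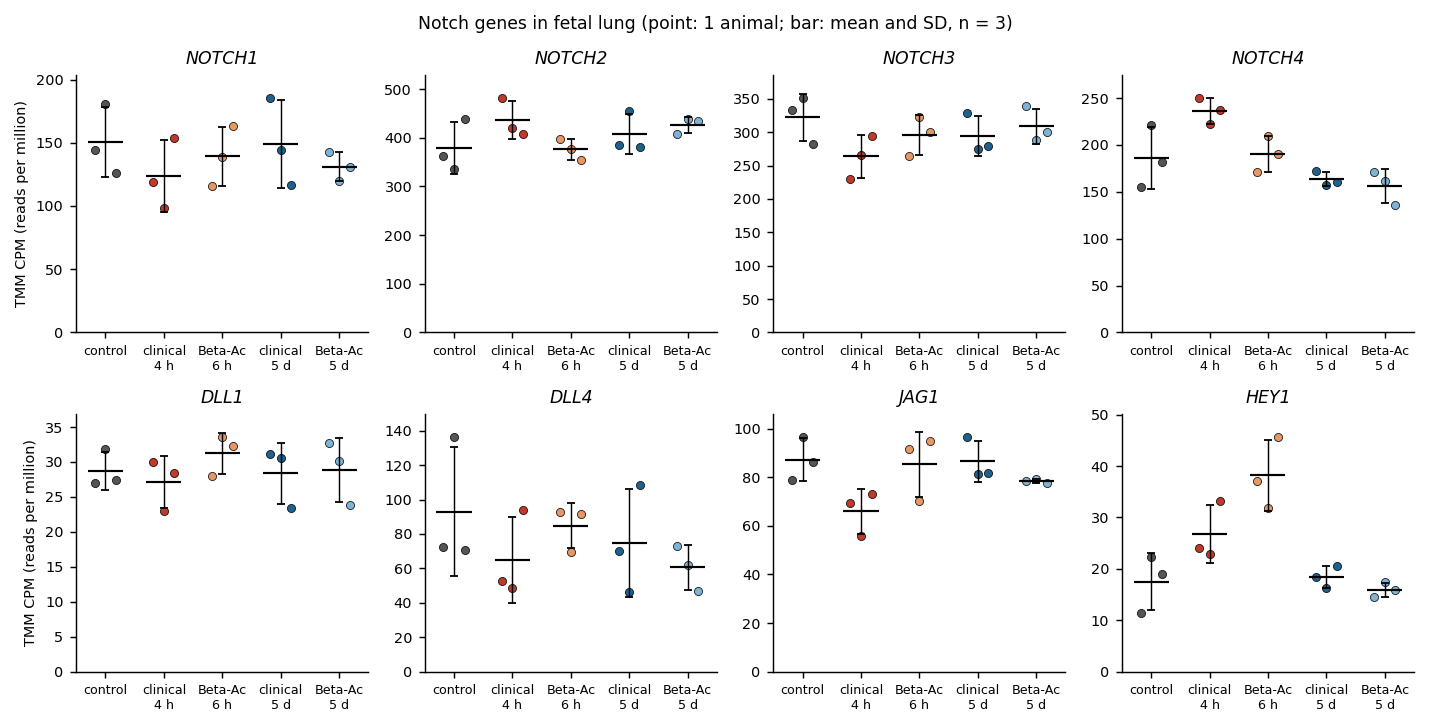
Notch genes in fetal lung, in TMM-scaled reads per 1 M reads (CPM), by group, with a point for each animal and bars for the mean and SD of 3 animals. HEY1 stood at 31.9 to 45.6 CPM at 6 h after Beta-Ac against 11.4 to 22.2 in controls, and JAG1 at 55.6 to 73.3 CPM at 4 h after the clinical drug against 78.9 to 96.4.

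Of the ligands, JAG1 separated the early clinical drug group from controls. JAG1, the Jagged ligand needed for vessel smooth muscle and for airway cell fates, was at 78.9, 96.4 and 86.4 CPM in controls and at 69.3, 55.6 and 73.3 CPM at 4 h after the clinical drug. All 3 treated lungs lay below all 3 controls. The log2 fold change was -0.40 ± 0.13 (q = 0.0631), which passed the q threshold but not the 1.5-fold threshold. Without the fold threshold 2104 of 17644 tested genes passed in that comparison. At 6 h after Beta-Ac JAG1 was at 91.4, 70.1 and 94.7 CPM, a log2 fold change of -0.03 (95% interval -0.31 to 0.25). The difference between the early groups was -0.37 ± 0.13 (q = 0.0782), and that between 4 h and 5 days of the clinical drug -0.39 ± 0.13 (q = 0.0511), both again below 1.5-fold.

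DLL4, a Delta ligand of endothelial tip cells, varied widely between animals of a group. It was at 72.4, 136 and 70.6 CPM in controls, at 52.5, 48.9 and 93.7 CPM at 4 h after the clinical drug and at 93.0, 69.6 and 91.6 CPM at 6 h after Beta-Ac. The groups overlapped. The 95% interval of the log2 fold change ran from -1.23 to 0.20 for the clinical drug and from -0.84 to 0.58 for Beta-Ac, so changes near 2-fold were within it for the clinical drug. DLL1, the other Delta ligand, was at 23.0 to 33.5 CPM over the 9 control and early lungs, with log2 fold changes of -0.08 (-0.41 to 0.25) and 0.12 (-0.21 to 0.45).

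Among the receptors, NOTCH4 and NOTCH3 had log2 fold changes of opposite sign at 4 h after the clinical drug, and neither was called. NOTCH4 was at 155, 221 and 182 CPM in controls and at 250.1, 222.4 and 237.4 CPM in treated lungs, all 3 above all 3 controls, the closest pair by less than 2 CPM. The log2 fold change was 0.35 ± 0.13 (q = 0.0903), below 1.5-fold. NOTCH3 was at 333, 351 and 282 CPM in controls and at 230, 266 and 294 CPM in treated lungs, which overlapped, with a log2 fold change of -0.29 ± 0.12 (q = 0.142). After Beta-Ac at 6 h NOTCH4 differed from controls by 0.03 (95% interval -0.24 to 0.30) and NOTCH3 by -0.12 (-0.38 to 0.14). NOTCH1 and NOTCH2 had log2 fold changes between -0.28 and 0.21 in both early comparisons.

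NOTCH4 then stood lower at 5 days. It was at 172, 158 and 161 CPM at 5 days after the clinical drug, all below the 3 lungs at 4 h, and the log2 fold change of 4 h against 5 days was 0.54 ± 0.13 (1.45-fold, q = 0.0105). That had the smallest q of any of the 8 genes in any lung comparison and was short of the fold threshold, so 0 of 8 genes were called there, against 10.4% of all tested genes. Without the fold threshold 3306 of 17644 tested genes passed there. The groups did not overlap for 3 of 8 genes, beside 29.1% of all tested genes. After Beta-Ac at 5 days NOTCH4 was at 171, 162 and 136 CPM.

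Counting libraries rather than calls, 3 of 8 genes (NOTCH4, JAG1 and HEY1) did not overlap between controls and the early clinical drug group, and 1 of 8 (HEY1) did not for Beta-Ac. Over all tested genes these shares were 21.3% and 16.3%. The 8 genes had a median log2 fold change of -0.18 at 4 h and -0.02 at 6 h, beside medians of 0.02 and 0.02 over all tested genes. Summed endothelial markers (9 of 11 genes in the table, none at 0) were at 3747 to 4388 CPM in controls, 3351 to 4449 at 4 h after the clinical drug and 3947 to 4034 at 6 h after Beta-Ac. Of these 9 genes 1 was called lower at 4 h, namely KDR, a receptor for VEGF, with a log2 fold change of -1.16 (q = 0.000132). Summed mural markers (9 of 10 genes, none at 0) were at 3345 to 3849 CPM in controls, 2820 to 3346 at 4 h and 2896 to 4060 at 6 h, with RGS5, a pericyte gene, called lower at 4 h (-1.11, q = 0.0169). Summed lung epithelial markers (8 of 10 genes, none at 0) were at 6706 to 9863 CPM in controls, 11057 to 17178 at 4 h and 7929 to 13293 at 6 h. At 4 h 3 of the 8 were called higher, the surfactant protein gene SFTPC (1.13), the lipid transporter gene ABCA3 (0.93) and the tight junction gene CLDN18 (0.93). Of 4 T cell markers 2 were called lower at 4 h, CD3E (-2.09) and CCR7 (-2.43), and IL7R was called higher (1.12), while their sum was at 56.7 to 60.7 CPM in controls and 48.7 to 132 at 4 h. At 6 h 0 of the 9 endothelial, 9 mural, 8 epithelial and 4 T cell markers were called. The part of these markers in the Notch gene results was not tested, and in whole tissue fewer cells of a type cannot be told apart from less RNA per cell.

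**Figure D2:**
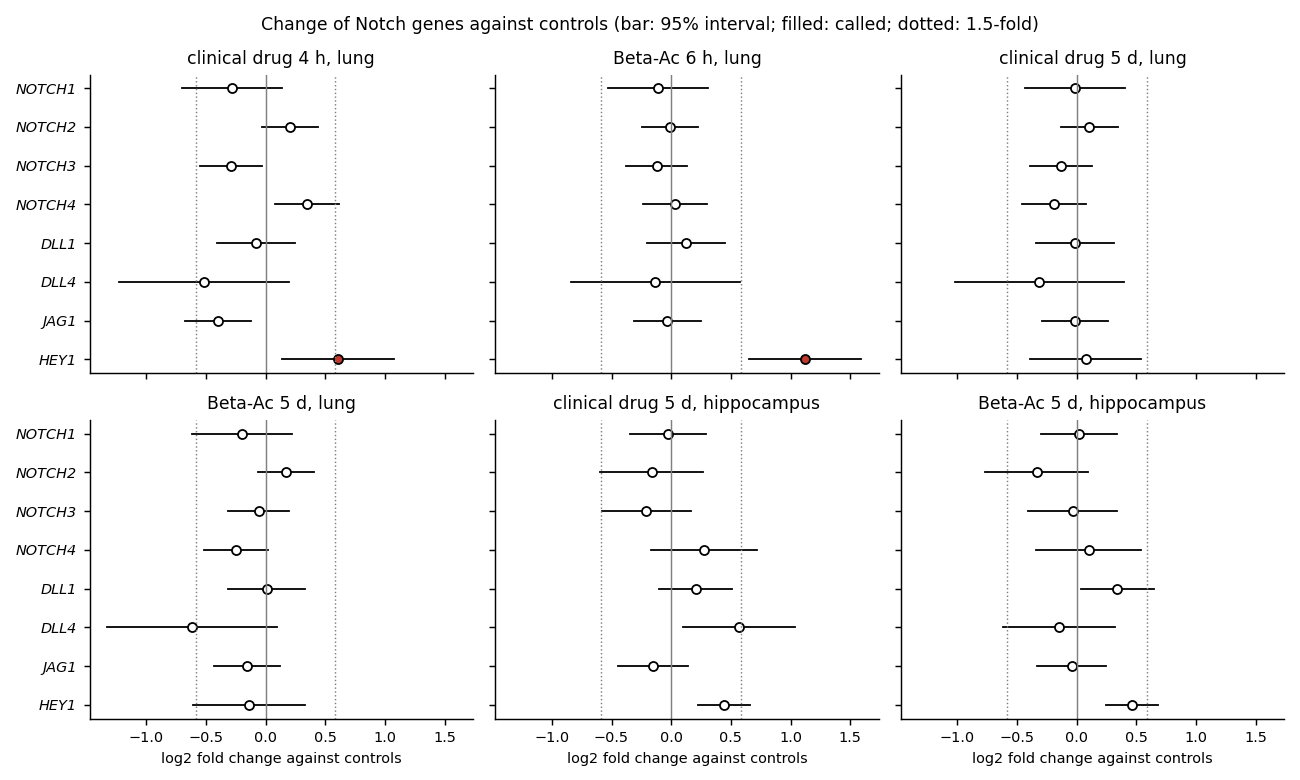
Log2 fold change against controls (x axis) of the 8 Notch genes (y axis) in 6 comparisons, with 95% intervals, dotted lines at 1.5-fold and filled points for genes called. HEY1 is filled at 4 h (0.61) and at 6 h (1.12) in lung, and no gene is filled at 5 days in lung or in hippocampus.

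At 5 days in lung none of the 8 genes was called for either drug by the quasi-likelihood test or by DESeq2, and none had an unadjusted p under 0.05. Over all tested genes 0% and 0.00567% were called by the quasi-likelihood test, and 16 and 40 of 17644 genes by DESeq2. The log2 fold changes ran from -0.31 to 0.11 after the clinical drug and from -0.62 to 0.17 after Beta-Ac, with DLL4 the lowest in both. DLL4 was at 70.0, 46.1 and 108 CPM after the clinical drug and at 72.9, 62.2 and 46.7 CPM after Beta-Ac, and its 95% intervals of -1.02 to 0.40 and -1.33 to 0.10 leave room for sizable change. NOTCH4 came next after Beta-Ac, at -0.25 (-0.52 to 0.02). The summed endothelial markers were at 3287 to 3409 CPM after Beta-Ac, below every control (3747 to 4388), and at 3631 to 3972 after the clinical drug, which overlapped controls. After Beta-Ac 9 of 9 endothelial markers had negative log2 fold changes (median -0.31) and 0 were called, and their part in the DLL4 and NOTCH4 values was not tested. JAG1 was within 77.4 to 79.1 CPM in the 3 Beta-Ac lungs, a log2 fold change of -0.16 (-0.43 to 0.12). Between the drugs at 5 days 0 of 8 genes were called, as were 0% of all tested genes, and the differences lay between -0.07 and 0.30.

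The rest of the pathway was described from 54 further genes in 6 lists by role, of which 42 were tested in lung and 44 in hippocampus. At 4 h after the clinical drug 2 of the 42 fell and 0 rose, where 3.94% of all tested genes were called lower. The median log2 fold change was 0.00, against 0.02 over all tested genes. At 6 h after Beta-Ac 0 of 42 were called by the quasi-likelihood test, with 2 at an unadjusted p under 0.05.

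NRARP, a direct Notch target that feeds back to break down the receptor's intracellular domain, was at 4.76, 5.75 and 3.36 CPM in controls and at 1.67, 2.24 and 2.50 CPM at 4 h after the clinical drug. All treated lungs were below all controls, and NRARP fell by 1.12 on the log2 scale (SE 0.28, q = 0.0195). At 6 h after Beta-Ac it was at 4.00, 3.36 and 4.39 CPM, and at 5 days after the clinical drug at 7.10, 6.27 and 4.57 CPM, both above every lung at 4 h. Over all tested genes the groups of 22.4% and 29.1% did not overlap in these comparisons, and 4.11% and 5.92% were called lower at 4 h. The difference was -0.89 ± 0.28 (q = 0.0539) against Beta-Ac at 6 h and -1.50 ± 0.28 (q = 0.00268) against the clinical drug at 5 days. The call against Beta-Ac was lost without clinical drug 2 (-0.93, q = 0.107), Beta-Ac 1 (-0.87, q = 0.1) or Beta-Ac 3 (-0.80, q = 0.134). NRARP and HEY1, both Notch targets, thus had log2 fold changes of opposite sign at 4 h. The NRARP call against controls held in all 13 alternatives, while that of HEY1 was lost in 8 of 13.

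LFNG, the Fringe enzyme that adds a sugar to Notch receptors and so sets which ligands they answer, was the other gene that fell. It was at 44.5, 55.8 and 43.1 CPM in controls and at 23.5, 33.7 and 27.2 CPM at 4 h, a log2 fold change of -0.77 ± 0.21 (q = 0.0323) with no overlap. At 6 h after Beta-Ac LFNG was at 31.1, 51.3 and 51.2 CPM, so 1 of 3 lungs lay within the range of the early clinical drug group. The difference between the early groups was -0.67 ± 0.21 (q = 0.0561), and that from the clinical drug at 5 days (42.3, 50.1 and 35.6 CPM) was -0.61 ± 0.21 (q = 0.0584). The call against controls was lost without control 2 (-0.64, q = 0.115). Each of the other 2 calls was lost without any of 4 single lungs, clinical drug 1 or 3 at 4 h and Beta-Ac 2 or 3 (-0.55 to -0.65) in the first, clinical drug 1 or 3 at 4 h and 1 or 2 at 5 days (-0.47 to -0.61) in the second. The other Fringe genes MFNG and RFNG were not called in any lung comparison.

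A further target, HES4, was chosen for mention after its values were seen, since it was called in 2 comparisons but not against controls. HES4 was at 2.85, 3.56 and 3.56 CPM in controls, 2.57, 2.54 and 4.38 at 4 h after the clinical drug and 3.69, 6.12 and 6.94 at 6 h after Beta-Ac. Its 5-day values of 7.83, 5.49 and 5.68 CPM for the clinical drug and 5.08, 4.82 and 5.82 CPM for Beta-Ac were above every control, as groups did not overlap for 12.3% and 12.2% of all tested genes. The 4 h group was lower than Beta-Ac at 6 h by -0.83 ± 0.28 (q = 0.0686) and lower than 5 days by -1.01 ± 0.28 (q = 0.0235) on the log2 scale. Against controls the q was 0.931 for the clinical drug at 5 days. The call against Beta-Ac was lost without clinical drug 1 or 2 or Beta-Ac 2 or 3 (-0.65 to -0.75), and that against 5 days without the first lung at 5 days (-0.83, q = 0.105).

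In the nuclear complex, the receptor cleavage list and the endocytosis list 0 of 12, 0 of 6 and 0 of 12 genes were called in either early comparison by the quasi-likelihood test. At 4 h after the clinical drug 3, 1 and 1 of them had an unadjusted p under 0.05. The Mastermind coactivators MAML2 and MAML3 had log2 fold changes of -0.48 (q = 0.0637) and -0.43 (q = 0.0554), both below 1.5-fold. Both genes were also chosen after their values were seen.

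**Figure D3:**
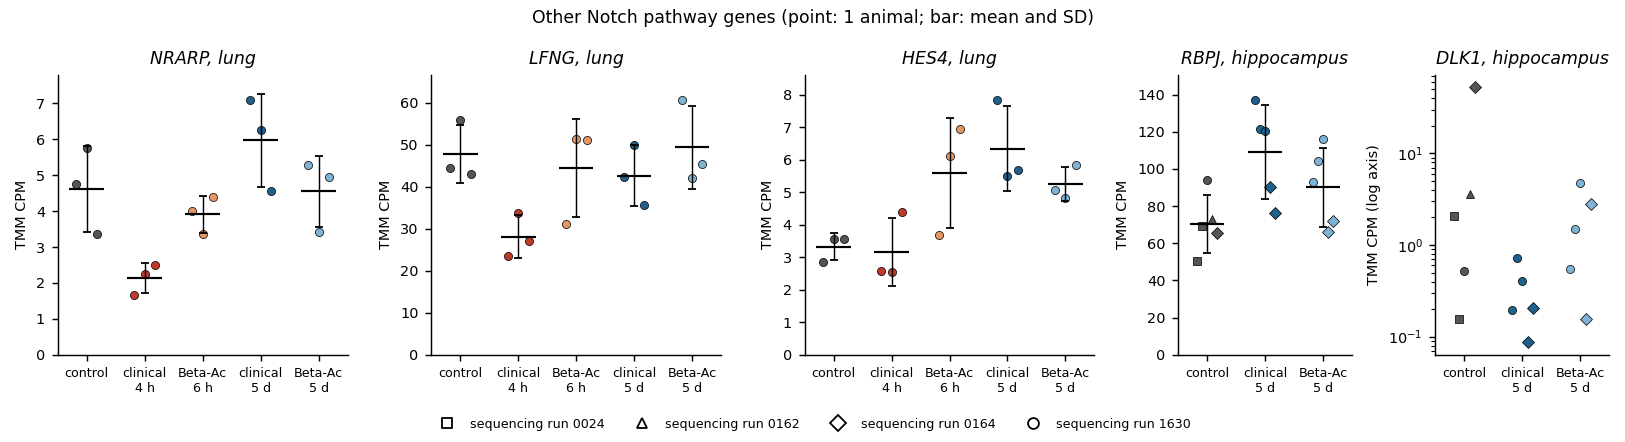
Other Notch pathway genes, in TMM-scaled CPM, with a point for each animal and, except for DLK1 (log axis), bars for the mean and SD of 3 animals in lung and 5 in hippocampus; point shape in hippocampus gives the sequencing run. NRARP stood at 1.67 to 2.50 CPM at 4 h after the clinical drug against 3.36 to 5.75 in controls, and DLK1 at 52.8 CPM in a single hippocampus control.

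The genes whose pattern over the 15 lungs was most like that of HEY1 were HECW2, a ubiquitin ligase, mml-mir-770, and JADE2. Likeness was the root mean square gap between centred log2 CPM, among 12455 tested genes with a symbol, and gaps were 0.21, 0.29 and 0.30. The spread of HEY1 about its own mean was 0.53 by the same measure, and the median gap over all genes was 0.60. The row of mml-mir-770 held only 0.48 to 1.69 CPM.

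The second question was whether the pathway still differed in hippocampus 5 days after treatment. HEY1 was the clearest member here too, above controls with both drugs, although it was not called. Controls had 45.6, 48.2, 57.8, 49.4 and 38.2 CPM of HEY1. The clinical drug group had 65.1, 66.6, 62.9, 64.4 and 66.1 CPM, and the Beta-Ac group 60.8, 75.7, 66.9, 67.7 and 58.8 CPM. All 10 treated animals lay above all 5 controls, and the clinical drug group was the tightest, with an SD of 1.47 CPM. HEY1 had a log2 fold change of 0.44 ± 0.10 (1.36-fold, adjusted p = 0.018) for the clinical drug and 0.46 ± 0.10 (1.38-fold, adjusted p = 0.213) for Beta-Ac, by the quasi-likelihood test. The unadjusted p was 0.000523 and 0.000329 in the same test. For the clinical drug the change passed the adjusted threshold and was short of 1.5-fold. Without the fold threshold 3816 of 17390 tested genes passed in that comparison. The drugs themselves differed by -0.02 (95% interval -0.24 to 0.19).

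Groups that did not overlap were 1 of 8 genes for each drug, HEY1 both times, beside 15.1% of all tested genes in the clinical drug comparison and 1.32% in that of Beta-Ac. None of the 8 genes was called in any of the 3 hippocampus comparisons by the quasi-likelihood test, with 2, 2 and 1 at an unadjusted p under 0.05. Over all tested genes 7.86% were called with the clinical drug, 0% with Beta-Ac and 0% between the drugs. DESeq2 called 1 of 8 (DLL4) for the clinical drug against controls and 1 of 8 (DLL4) between the drugs. Over all 17390 tested genes DESeq2 called 1405 and 186 in these comparisons.

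The hippocampus libraries were spread over 4 sequencing runs, of which 2 held all 3 groups. In the run of control 3 this control was at 57.8 CPM of HEY1, the clinical drug animals at 65.1, 66.6 and 62.9 and the Beta-Ac animals at 60.8, 75.7 and 66.9. In the run of control 5 this control was at 38.2 CPM, the clinical drug animals at 64.4 and 66.1 and the Beta-Ac animals at 67.7 and 58.8. Within both runs every treated animal was above the control, and the gap was wider in the run whose control carried choroid plexus transcripts. With run as a term the log2 fold change was 0.44 (adjusted p = 0.085) for the clinical drug and 0.46 (adjusted p = 0.252) for Beta-Ac. Without control 5 and Beta-Ac 4 it was 0.37 (adjusted p = 0.0182) and 0.39 (adjusted p = 0.187).

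Glial marker sums also had higher medians in the treated groups. Summed radial glia markers (5 of 7 genes in the table, none at 0) were at 1798 to 2463 CPM in controls, 2085 to 3449 after the clinical drug and 1993 to 3139 after Beta-Ac. SLC1A3 weighs heavily in this sum, at 1231 to 2555 CPM over all hippocampus libraries. Summed astrocyte markers (5 of 6 genes, none at 0) were at 1155 to 1885, 1902 to 2462 and 1232 to 2324 CPM, so for the clinical drug all 5 animals exceeded all 5 controls. In that group 2 of 5 radial glia markers rose, NES by 0.63 (adjusted p = 0.059) and HOPX by 0.60 (adjusted p = 0.0205) on the log2 scale. Of the 5 astrocyte markers 1 rose, the water channel AQP4, by 0.93 (adjusted p = 0.0225). Over all tested genes 2.5% were called higher. In each of the 2 lists 4 markers had positive log2 fold changes and 1 a negative one. After Beta-Ac 0 of 5 and 0 of 5 were called, with 5 positive and 0 negative among radial glia markers and 3 and 2 among astrocyte markers. The part of glial RNA in the HEY1 values was not tested.

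**Figure D4:**
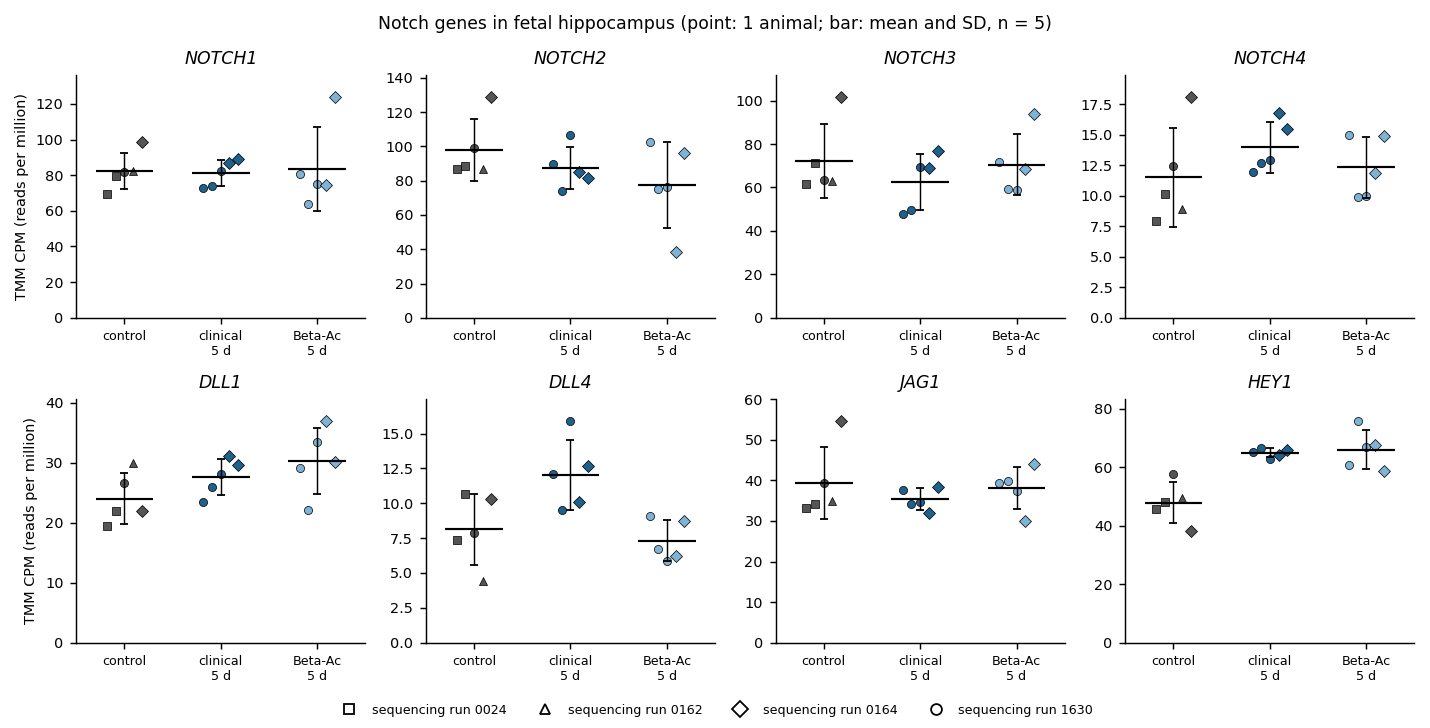
Notch genes in fetal hippocampus, in TMM-scaled CPM, with a point for each animal, bars for the mean and SD of 5 animals in controls, clinical drug and Beta-Ac, and point shape for the sequencing run. HEY1 stood at 58.8 to 75.7 CPM in the 10 treated animals against 38.2 to 57.8 in controls, and DLL4 at 9.52 to 15.9 CPM after the clinical drug against 5.88 to 9.06 after Beta-Ac.

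**Figure D5:**
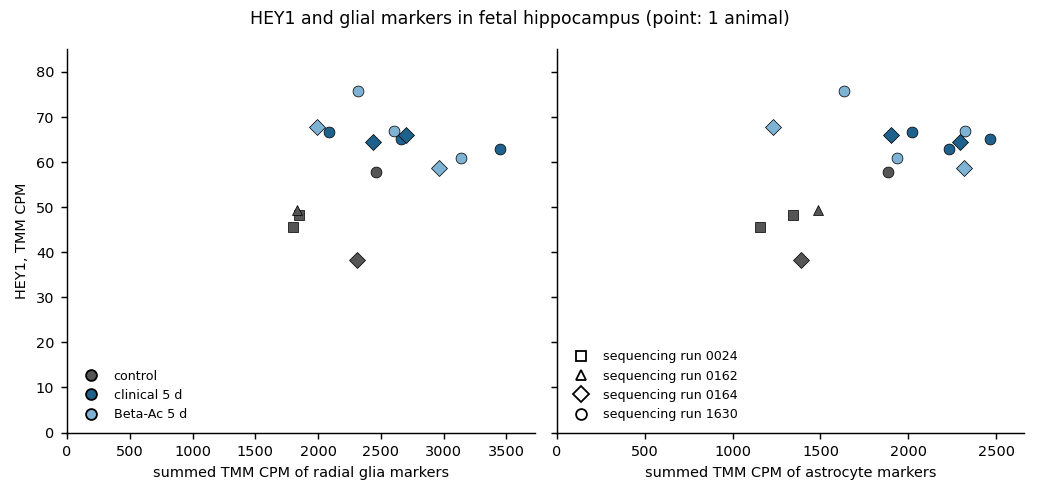
HEY1 (y axis, CPM) against the summed CPM of radial glia markers (left) and astrocyte markers (right) in each of the 15 hippocampus libraries, coloured by group and shaped by sequencing run. The 10 treated animals lie at 58.8 CPM of HEY1 or more at marker sums from 1993 to 3449 and from 1232 to 2462 CPM, and the control with the most HEY1 (57.8 CPM) also has the highest sums of both marker lists among controls (2463 and 1885 CPM).

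DLL4 differed most between the drugs in hippocampus, and the difference was not called by the quasi-likelihood test. It was at 7.35, 10.7, 7.90, 4.40 and 10.3 CPM in controls, at 12.1, 9.52, 15.9, 10.1 and 12.7 CPM after the clinical drug and at 9.06, 6.71, 5.88, 6.24 and 8.71 CPM after Beta-Ac. All 5 clinical drug animals lay above all 5 Beta-Ac animals, while both groups overlapped controls. DLL4 had a log2 fold change of 0.57 ± 0.22 for the clinical drug against controls (1.48-fold, adjusted p = 0.098), just short of 1.5-fold, which it passed without control 2 (0.69), control 5 (0.67) or clinical drug 2 (0.64). Between the drugs it was 0.72 ± 0.22 (1.64-fold, adjusted p = 0.235 over all genes), and DLL4 was the only 1 of 8 genes whose groups did not overlap, beside 2.78% of all tested genes. With run as a term the clinical drug value was 0.41 (adjusted p = 0.333) and the difference between the drugs 0.72 (adjusted p = 0.116). The sign of that difference follows the sample titles, which match the lung labels for the 6 treated animals with both tissues, while the treatment field would exchange the drugs. Summed endothelial markers were at 178 to 439 CPM in controls, 202 to 290 after the clinical drug and 222 to 287 after Beta-Ac (10 of 11 genes, none at 0), and their part in the DLL4 values was not tested.

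DLL1, which marks cells that send the Notch signal, was at 19.4, 22.0, 26.6, 29.9 and 22.0 CPM in controls and at 29.1, 22.1, 33.4, 36.9 and 30.1 CPM after Beta-Ac, which overlapped. The log2 fold change was 0.34 ± 0.15 (adjusted p = 0.363), and for the clinical drug 0.20 (95% interval -0.10 to 0.51). JAG1 had log2 fold changes of -0.15 and -0.04. Among the receptors the log2 fold changes ran from -0.34 (NOTCH2 after Beta-Ac, 95% interval -0.77 to 0.10) to 0.28 (NOTCH4 after the clinical drug, -0.17 to 0.72), all overlapping controls. Control 5 had the highest level of all 4 receptors and of JAG1 among the controls, with NOTCH3 at 102 CPM against 61.4 to 71.2 in the other controls, together with the highest endothelial and mural sums (439 and 357 CPM). NOTCH2 was lowest in Beta-Ac 4, at 38.3 CPM against 75.2 to 102 in the other Beta-Ac animals.

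Of the 44 other pathway genes tested in hippocampus, RBPJ rose and DLK1 fell after the clinical drug, and 0 were called after Beta-Ac or between the drugs by the quasi-likelihood test, with 10 and 3 at an unadjusted p under 0.05. Over all tested genes 2.5% were called higher and 5.35% lower after the clinical drug. RBPJ, the DNA-binding partner of every Notch receptor, was at 50.3, 69.4, 93.8, 73.2 and 65.7 CPM in controls and at 137, 122, 120, 90.0 and 76.2 CPM after the clinical drug, which overlapped. The log2 fold change was 0.63 ± 0.20 (1.55-fold, adjusted p = 0.0462). The run of control 3 stood above the run of control 5 in all 3 groups, with these controls at 93.8 and 65.7 CPM. With run as a term RBPJ had a log2 fold change of 0.39 (adjusted p = 0.108) and was not called, nor was it without control 1 (0.53, adjusted p = 0.106) or clinical drug 1 (0.53, adjusted p = 0.111).

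DLK1, a ligand-like protein of the Delta family without the usual receptor-binding domain, was at 2.10, 0.16, 0.52, 3.65 and 52.8 CPM in controls. After the clinical drug it was at 0.20, 0.72, 0.40, 0.087 and 0.21 CPM. The call (log2 fold change -5.19 ± 1.39, adjusted p = 0.0279) rests on control 5, and without that library the log2 fold change was -2.30 (adjusted p = 0.113).

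The genes of receptor cleavage lay lower after the clinical drug without being called. Of the 6 tested genes 6 had negative log2 fold changes, from -0.34 to -0.02, with a median of -0.22 beside -0.02 over all tested genes. ADAM10, the protease of the first cut, was at -0.34 (adjusted p = 0.0972) and NCSTN, a gamma-secretase subunit, at -0.32 (adjusted p = 0.0268). In the endocytosis list the ubiquitin ligase ITCH, which tags Notch for breakdown, was at -0.58 (adjusted p = 0.0311), just short of 1.5-fold. Among the sugar transferases POFUT1, which adds the first fucose to the receptors, was at -0.43 (adjusted p = 0.0341). These 4 genes were chosen after their values were seen.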

How the data were processed

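RNA-seq count tables of lung and hippocampus were used, 15 libraries each. The authors aligned reads to the Rhesus build MMUL1.0 with Bowtie 2 (the lung submission notes name Bowtie 1.2.1.1) and counted them per Ensembl gene with featureCounts (1.5.1 in those notes). Hippocampus RNA was poly(A) selected and read as 75 bp pairs. The deposited values are whole counts, neither normalized nor filtered. Symbols came from a table of Ensembl identifiers and were found for 52.1% of lung and 54.4% of hippocampus rows. No sequence or genome coordinate was used.

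In lung 17644 genes (7 or more reads in 3 or more libraries) and in hippocampus 17390 (in 5 or more) were fitted with edgeR 4.0.16 in R 4.3.3, with TMM scaling and 1 quasi-likelihood fit per tissue. Storey's q in lung and the thresholds follow the study, which names edgeR but not the test used. Its methods give Storey's method for all comparisons, while the caption of a hippocampus figure gives Benjamini-Hochberg, which was used here for hippocampus. With Storey's method 1731 hippocampus genes were called for the clinical drug against controls, in place of 1366. The study reports more genes in lung than were called here, in every comparison with controls. SE and 95% intervals were derived from the test's p and degrees of freedom. Fold changes used a prior count of 0.125 and likeness a prior count of 2. No replicate numbers pair the groups, each library is 1 animal, and counts of replicates differed by far more than sampling noise (chi-square per gene from 14.6 to 261). That chi-square is an average over genes. It was not worked out for genes with few reads, such as DLK1 with 2 to 14 reads per hippocampus library after the clinical drug. The procedure was tested on simulated counts.

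The 10 genes, the 6 pathway lists and the marker lists were chosen with earlier results of these data known. Text names every one of the 10 and every listed gene called against controls, plus those it says were chosen later. Alternatives were RLE scaling, filterByExpr, no filter, DESeq2 1.42.0, no fold threshold, the other adjustment, only the 2 groups compared and each library left out. In hippocampus they also were the groups that the treatment field gives, run as a term, only the 2 runs holding every group, and only the 9 animals that also gave lung. Leaving out control 5 and Beta-Ac 4 together was added after seeing the data.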

Additional observations from a re-analysis of the deposited data

Results flagged for a closer look

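Of 39 tested sets of 5 hippocampus libraries, 3 held a library far from the others, where chance flags about 1 in 20. NOTCH1 was at 124 CPM in Beta-Ac 5, and NOTCH3 was at 102 CPM and DLK1 at 52.8 CPM in control 5.

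Several genes differed between treated groups. HEY1 was higher at 6 h than at 5 days of Beta-Ac in lung, by 1.26 on the log2 scale (3 of 3 lungs above all 3). At 4 h after the clinical drug, log2 differences from Beta-Ac at 6 h were -0.83 for HES4, -0.89 for NRARP and -0.67 for LFNG, and from the clinical drug at 5 days they were -1.01 for HES4, -1.50 for NRARP and -0.61 for LFNG. NRARP did not overlap in either comparison.

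A pair of genes lay on opposite sides of the control mean in lung and hippocampus at 5 days. After the clinical drug every lung was below the control mean of NOTCH4 (log2 fold change -0.19) and every hippocampus above it (0.28). After Beta-Ac every lung was below the control mean of HEY1 (-0.14) and every hippocampus above it (0.46). None of these 4 differences was called, NOTCH4 overlapped controls in both tissues and HEY1 did in lung. The differences between tissues were not tested.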

How the results depend on the processing

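Counts of the 8 genes called in a comparison kept their value in 140 alternatives and not in 30. The reported fold changes kept direction and call in 360, lost the call in 47, gained it in 18 and changed sign in 2. Both tallies include the alternative that takes the hippocampus groups from the treatment field. For the clinical drug at 4 h in lung 1 gene was called, 0 with no filter on low counts, with Benjamini-Hochberg adjustment and with only the 2 groups compared, 3 without the fold threshold, and 0 to 1 with a library left out. HEY1 then had 0.60 (q = 0.146), 0.61 (q = 0.133) and 0.59 (q = 0.23), and with a library left out 0.36 to 0.81, losing the call without any of the 3 treated lungs, control 1 or control 3. For Beta-Ac at 6 h the count was 0 with only the 2 groups (HEY1 1.11, q = 0.253) and 0 to 1 with a library left out (0.88 to 1.33), lost without control 1, control 3 or Beta-Ac 3. For 6 h against 5 days of Beta-Ac it was 0 to 1 (1.12 to 1.36), lost without Beta-Ac 3 at 6 h or any 5-day animal. Between the early groups it was 1 without the fold threshold (JAG1) and 0 to 1 with a library left out (HEY1 -0.70 without clinical drug 3 and -0.63 without Beta-Ac 2), and for 4 h against 5 days of the clinical drug 3 and 0 to 1 (HEY1 0.59 without clinical drug 1 at 4 h). In hippocampus the clinical drug gave 1 with RLE scaling, 1 with DESeq2, 1 without control 5 and Beta-Ac 4 (DLL4, 0.59, 0.59 and 0.67), 2 without the fold threshold, and 0 to 1 with a library left out, and between the drugs DESeq2 gave 1 (DLL4, 0.73). Over all 17644 lung genes, dropping the fold threshold gave 2104 at 4 h against controls and 2389 between the early groups. It gave 3306 for 4 h against 5 days of the clinical drug, and 3816 of 17390 in hippocampus for the clinical drug. Under the groups of the treatment field DLL4 changed sign to -0.15 against controls and -0.72 between the drugs, by construction. LFNG lost its call against controls without control 2 (-0.64, q = 0.115), and RBPJ with only the 2 runs (0.41, adjusted p = 0.0951, below 1.5-fold) and without control 1 or clinical drug 1. At 4 h against Beta-Ac at 6 h, HES4 lost its call with no filter on low counts (q = 0.152), with Benjamini-Hochberg adjustment (0.11) and with only the 2 groups (0.217), NRARP with no filter (0.123) and only the 2 groups (0.164), and LFNG with only the 2 groups (0.161), beside the libraries named above. NRARP against controls kept its call in all alternatives. Of 70 fold changes of the 8 genes with p of at least 0.05, 38 changed sign in at least 1 alternative and 0 were called in any. Leaving out the groups of the treatment field, 34 changed sign. Treatment groups within a tissue hold different animals, so no pairing between them was possible. Lung and hippocampus of the same animal were not paired.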
